A study of Mus musculus with 4 samples.

Results

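iNKT17 cells are the IL-17-producing subset of invariant natural killer T (iNKT) cells, and 792 of the 14779 non-cycling cells kept in this series were assigned to it. A cell was an iNKT17 cell when its summed UMIs of 7 marker genes (Il23r, Blk, Il1r1, Tmem176a, Tmem176b, Pxdc1 and Serpinb1a) came to 6 or more and its summed UMIs of 6 cell cycle genes (Mki67, Top2a, Birc5, Cdk1, Rrm2 and Pclaf) stayed under 4. UMIs count distinct tagged molecules, so PCR copies count once. The other 13987 non-cycling cells, with a marker sum under 6, were the comparison group within each library. A further 61 cells reached the marker sum but were cycling and belong to neither group. Thymus cells of BALB/c and B6 mice that were positive for CD3 and bound PBS57-loaded CD1d had been sorted and profiled with a 10x Genomics 5' single-cell kit, with 2 libraries per strain. The labels give the strain as the genotype of each library and name no allele, agent or age, and separate mice are not stated, so p-values measure the spread between these libraries, which may be technical. Values for the libraries are given in the order BALB/c 1, BALB/c 2, B6 1 and B6 2.

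iNKT cells recognise lipids on CD1d through a largely invariant T cell receptor (TCR) alpha chain and take on effector programmes within the thymus under the transcription factor PLZF, encoded by Zbtb16. The iNKT17 programme resembles that of Th17 cells and of IL-17-producing gamma-delta T cells. iNKT1 cells carry T-bet (Tbx21), interferon-gamma and NK receptors, and iNKT2 cells make IL-4. Il23r and Il1r1 encode receptors for IL-23 and IL-1, cytokines that induce IL-17 release, and Blk encodes a Src-family kinase.

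The iNKT17 cells numbered 315, 188, 77 and 212, against 1429, 1600, 2154 and 8804 other cells. Median UMIs per cell were 10704, 11819.5, 12367 and 11444.5 in the iNKT17 cells and 10419, 8038.5, 6771 and 6865.5 in the other cells, so the iNKT17 cells were the deeper class in every library, and a fixed marker sum is reached more easily in deeper cells. Summed over cells, the iNKT17 class held 3552870, 2346902, 1025048 and 2736986 UMIs, which makes B6 1 the thinnest library for this class. Doublet scores ranked 3.17%, 1.06%, 2.6% and 10.8% of iNKT17 cells and 1.54%, 2.00%, 2.23% and 7.93% of other cells among the likely doublets; the total marked was set in advance by the barcode number. Between 4 and 33 barcodes were shared by a pair of libraries. The file header of B6 2 names another version of the counting software than those of the other libraries, and this was not told apart from B6 2 itself.

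The genes of the rule chose the cells and are described here with no test. Il23r stood at 190.3, 196, 137 and 264 CPM in the iNKT17 cells and 0.452, 0.375, 0.389 and 0.352 CPM in the other cells. Blk stood at 487, 417, 274 and 322 CPM in the iNKT17 cells and 8.33, 5.31, 2.2 and 3.86 CPM in the other cells, and Tmem176b, which lies beside Tmem176a on chromosome 6, at 492, 438, 502 and 250.3 CPM in the iNKT17 cells and 9.3, 7.99, 9.72 and 6.87 CPM in the other cells. All 7 markers were far higher in the iNKT17 cells of every library, as the rule makes them. The median marker sum was 23, 24, 23 and 19.5 UMIs, while 86.1%, 89.4%, 91.6% and 91.9% of the other cells had none of these UMIs. At least 5 of the 7 markers were detected in 608 iNKT17 cells (76.8%), all 7 in 226, and fewer than 3 in 65.

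**Figure D1:**
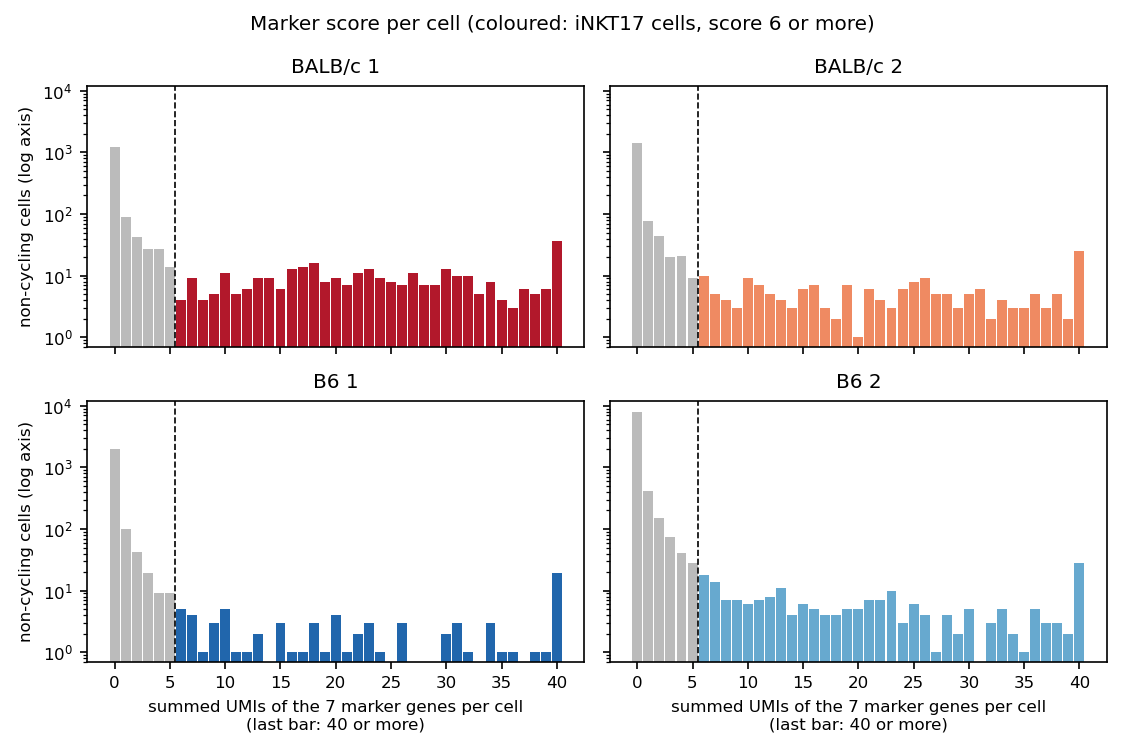
Number of non-cycling cells (vertical axis, log scale) by summed UMIs of the 7 marker genes (horizontal axis, last bar 40 or more), 1 panel per library; the dashed line marks the minimum of 6 and coloured bars are iNKT17 cells. The bulk of cells sit at 0 UMIs, and the iNKT17 cells spread from 6 upwards with medians between 19.5 and 24, with few cells on either side of the dashed line in B6 1.

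To see how far 1 marker was carried by the other 6, each marker was also left out of its own sum. Il23r was then detected in 68.8% to 80.7% of the cells chosen by the other markers and in 0.186% to 0.628% of the rest, over the 4 libraries. For Blk the ranges were 68.4% to 94.6% and 1.11% to 5.79%, and for Serpinb1a, a serine protease inhibitor, 47.0% to 67.6% and 0.443% to 0.686%. The markers tended to be found in the same cells, with Serpinb1a in the smallest share in 3 of 4 libraries. In B6 1 the smallest share was that of Il1r1 (61.8% against 67.6%). These are the rule's own genes, and the cells so chosen are largely its own deeper cells. The check is thus a description and no independent support for the rule. The cells at the edge of the rule were less uniform. At a marker sum of 6, just inside the rule, Rora stood at 70.4, 111, 33.6 and 76.8 CPM, against 47.7, 73, 23.3 and 71.2 CPM at a sum of 5, just outside it. These values rest on few cells, 4, 10, 5 and 18 at a sum of 6 and 14, 9, 9 and 28 at a sum of 5. At a sum of 20 or more, Rora stood at 142, 153, 106 and 186 CPM. The 18 cells of B6 2 at a sum of 6 had 669.7 CPM of Nkg7, a cytotoxic granule gene of iNKT1 cells, against 129 CPM in the 106 cells of that library at 20 or more.

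The promoter of Il23r is shown because Il23r is a marker of the rule and its window holds AGGTCA, a half-site of nuclear receptors, the family of Rora. Il23r lies on chr6:67422932-67491855, minus strand (GRCm38, GENCODE vM21). The 250 bases before its RefSeq start (chr6:67491856-67492105, GRCm38.p6, minus strand) read 5' to 3', with matches to AGGTCA or TAGGTCA on either strand in capitals:
Il23r: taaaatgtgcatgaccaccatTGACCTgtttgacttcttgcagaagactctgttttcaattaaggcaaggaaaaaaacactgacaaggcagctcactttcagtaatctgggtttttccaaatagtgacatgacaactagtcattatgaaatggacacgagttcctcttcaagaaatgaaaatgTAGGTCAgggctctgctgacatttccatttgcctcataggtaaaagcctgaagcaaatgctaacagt
The search covered AGGTCA and the longer TAGGTCA, which contains it, with their reverse complements TGACCT and TGACCTA. This window held 2 matches to AGGTCA, at 66 and 229 bases before the start, and the nearer was also a match to TAGGTCA. Over all 32851 promoter windows of that length, 14% held AGGTCA and 2.23% TAGGTCA. Of 14 genes of the programme looked up, 12 were in the table, and Il23r, Ccr6, Il17a and Il17f held a match in at least 1 window. Il1r1, Tmem176a, Tmem176b, Pxdc1, Il22, Il17re, Sdc1 and Kcnk1 held none. Counted per gene, 15.8% of all 27025 genes held AGGTCA in at least 1 window. A match describes letters, not binding.

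Other cell types that the gate could hold were counted before the comparisons. Blk is also a B cell gene, and 43 iNKT17 cells (15, 13, 9 and 6) held 2 or more UMIs of Cd79a, Cd79b and Ms4a1 together; Cd79a itself was detected in 13 iNKT17 cells. Cd79a stood at 11.8, 155, 97.1 and 0.345 CPM in the iNKT17 cells and 9.87, 21.8, 5.51 and 0.57 CPM in the other cells. Its level in iNKT17 cells was highest in BALB/c 2 and B6 1 and came from marker sums under 20, since at sums of 20 or more it stood at 0.437, 0, 0 and 0 CPM. The B-marked cells counted above were not limited to those sums, and 13, 6, 5 and 6 of them in the 4 libraries had sums of 20 or more. Summed over the 10 B cell markers, the iNKT17 cells held 177, 1625, 3602 and 108 CPM and the other cells 154, 401, 329.9 and 163 CPM, and no marker of the list was at 0. Of 8 B cell markers tested, Cd79a, Cd79b and Fcmr were higher in iNKT17 cells and none was lower. Cd79b (2.41 on the log2 scale) remained at 2.31 (edgeR adjusted p = 0.0091) when cells marked as B cells or early thymocytes were left out, whereas Cd79a (2.38, adjusted p = 0.0328) was not called without BALB/c 2 (1.94, adjusted p = 0.259) or without B6 1 (1.71, adjusted p = 0.0982). The other cells, in turn, held 10.1%, 10.6%, 8.5% and 4.0% of cells with 2 or more UMIs of early thymocyte genes (Rag1, Rag2, Dntt, Arpp21, Ptcra), against 4 iNKT17 cells in all. Of 10 neutrophil markers, 8 had no UMI in iNKT17 cells, S100a8 and S100a9 among them, and the summed level was 0.365 to 3.90 CPM against 0.103 to 0.375 CPM in other cells. Of 14 dendritic cell and macrophage markers, 10 had 3 UMIs or fewer, with Siglech, Adgre1 and C1qb at 0, and the sum was 6.58 to 76.1 CPM against 14.8 to 22.9 CPM. Of 7 thymic epithelial markers, 3 were at 0, and the sum was 2.92 to 11.9 CPM against 4.91 to 7.19 CPM.

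Counts were summed per library and class and compared with the library as a block. Of 11361 genes tested outside the 13 rule genes, 1825 (16.1%) were called at an edgeR adjusted p under 0.05, with 942 (8.29%) higher and 883 (7.77%) lower in iNKT17 cells. The cells were picked by expression in the same libraries, so these tests describe how the picked cells differ from the rest. CPM below are scaled by TMM factors, fold changes are iNKT17 over other cells on the log2 scale, adjusted p-values are from edgeR's quasi-likelihood test with Benjamini-Hochberg adjustment, and the median over all genes tested was -0.020.

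Several transcription factors of the type 17 programme were higher in the iNKT17 cells of both strains. Rora, a nuclear receptor that promotes IL-17 programmes (chr9:68653786-69388246, plus strand), stood at 130.4, 135, 85.9 and 164 CPM in the iNKT17 cells and 39.3, 29.3, 25.5 and 50.7 CPM in the other cells. The classes did not overlap, and Rora was higher in 4 of 4 libraries (log2 fold change 1.84 ± 0.11 SE, adjusted p = 3.66e-05). It was detected in 62.3% to 79.7% of iNKT17 cells and in 11.7% to 23% of other cells. After thinning to 5000 UMIs per cell, the shares were 32% to 55.9% and 9.55% to 17%. Thinning left out cells under 5000 UMIs. These were 3, 2, 2 and 10 iNKT17 cells and 325, 341, 573 and 2074 other cells. Maf, a factor needed for iNKT17 development, stood at 256, 205, 180.0 and 172 CPM in the iNKT17 cells and 123, 119.8, 100.2 and 98.6 CPM in the other cells (log2 fold change 0.87 ± 0.077 SE, adjusted p = 2.77e-04). For these factors no library of the iNKT17 class fell into the range of the other class. Batf, an AP-1 family partner in Th17 cells, stood at 127, 131, 121 and 97.9 CPM in the iNKT17 cells and 45.8, 48.3, 38.8 and 41.1 CPM in the other cells (log2 fold change 1.44 ± 0.087 SE, adjusted p = 4.63e-05).

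In all, 8 of the 18 type 17 factors tested were higher, Rora, Maf, Ahr, Batf, Runx1, Stat3 and Ikzf3 among them, 1 was lower and 9 did not pass; their median was 0.80 on the log2 scale. The lower gene was Etv5, an ETS factor, at -3.34. Runx1, a partner factor in Th17 cells, was higher at 0.93 (adjusted p = 1.23e-04) with 307 CPM in the B6 2 iNKT17 cells and between 93.0 and 113 CPM in those of the other libraries. B6 2 also stood highest in the other cells, at 158 CPM against 47.0 to 60.7 CPM. Sox13, a factor of IL-17-producing gamma-delta T cells, was not called (log2 1.05, adjusted p = 0.103), but was without BALB/c 1 (1.55, adjusted p = 0.0207) and by DESeq2 (1.31, adjusted p = 0.00922). Zbtb16, which all iNKT cells use, stood at 327, 347, 228 and 514 CPM in the iNKT17 cells and 437, 339.8, 144 and 329 CPM in the other cells and did not pass (log2 fold change 0.22 ± 0.18 SE, adjusted p = 0.475). Gata3, a factor of all T cells that is high in iNKT2 cells, lay between 82.5 and 94.5 CPM in every class and library (log2 -0.046, adjusted p = 0.751).

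Stat3, the transducer of IL-6 and IL-23 signals, and its feedback inhibitor Socs3 were both higher. Socs3 stood at 158, 154, 133 and 99.9 CPM in the iNKT17 cells and 5.67, 8.86, 5.17 and 4.58 CPM in the other cells (log2 fold change 4.50 ± 0.13 SE, adjusted p = 9.39e-07). Stat3 stood at 194, 195, 145 and 145 CPM in the iNKT17 cells and 97.4, 102, 91.4 and 106 CPM in the other cells (log2 fold change 0.76 ± 0.10 SE, adjusted p = 0.00214). The ratio between classes was far larger for the inhibitor than for the transducer, and neither gene overlapped between classes. Of 14 STAT, JAK and SOCS genes, 4 were higher (Stat3, Stat5b, Socs3 and Jak3), 2 lower, Stat4 among them, and 8 did not pass, with a median of 0.15. Stat4, which transmits IL-12 signals, was at -1.77 (adjusted p = 0.0024).

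Most type 17 receptors and surface molecules were higher in iNKT17 cells. Of 28 type 17 surface and receptor genes tested, 20 were higher, 1 was lower (Slc2a1, a glucose transporter, -1.11) and 7 did not pass, with a median of 1.10. Il17re, a receptor subunit for IL-17C (chr6:113458484-113470758, plus strand), stood at 136, 112, 94 and 97.5 CPM in the iNKT17 cells and 1.53, 0.456, 0.806 and 0.683 CPM in the other cells (log2 fold change 7.03 ± 0.18 SE, adjusted p = 6.62e-07). Sdc1, the proteoglycan syndecan-1 that has been used to mark thymic iNKT17 cells (chr12:8771323-8793715, plus strand), stood at 139, 99.7, 106 and 91.3 CPM in the iNKT17 cells and 1.2, 0.652, 0.403 and 0.726 CPM in the other cells (log2 fold change 7.12 ± 0.16 SE, adjusted p = 3.05e-07). Over both genes the lowest iNKT17 value was 91.3 CPM and the highest value in other cells 1.53 CPM. Ltb4r1, the leukotriene B4 receptor, stood at 55.9, 36.6, 51.6 and 47.2 CPM in the iNKT17 cells and 0.133, 0.391, 0.806 and 0.712 CPM in the other cells (log2 fold change 6.43 ± 0.31 SE, adjusted p = 1.41e-05). Tnfrsf25, the death receptor family member DR3, stood at 134, 112, 133 and 109 CPM in the iNKT17 cells and 9.0, 8.99, 14.4 and 15.7 CPM in the other cells (log2 fold change 3.36 ± 0.18 SE, adjusted p = 2.76e-05).

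Ccr6, the receptor for CCL20 and a hallmark of Th17 cells (chr17:8236043-8257141, plus strand), stood at 57, 60.5, 164 and 94.8 CPM in the iNKT17 cells and 1.4, 2.35, 0.94 and 0.0712 CPM in the other cells (log2 fold change 6.72 ± 0.68 SE, adjusted p = 5.04e-04). It did not overlap between classes, and the iNKT17 cells of both B6 libraries lay above those of both BALB/c libraries. It marked only some of the cells, as it was detected in 24.4% to 50.6% of iNKT17 cells and 0.0454% to 0.500% of other cells. Its log2 fold change was 5.73 without B6 2, 7.59 without BALB/c 2, and 9.88 without cells marked as B cells or early thymocytes; B cells also express Ccr6. The window before its first RefSeq start (chr17:8235793-8236042, GRCm38.p6, plus strand) is shown because it also holds a match to TAGGTCA, in capitals on the reverse strand, at 44 bases before the start:
Ccr6: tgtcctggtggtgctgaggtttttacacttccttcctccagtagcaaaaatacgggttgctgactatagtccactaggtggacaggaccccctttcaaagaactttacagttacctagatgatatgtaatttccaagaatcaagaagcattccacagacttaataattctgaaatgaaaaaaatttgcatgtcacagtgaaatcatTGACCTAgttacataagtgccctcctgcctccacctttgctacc
The window of its other listed start held no match.

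Among cytokine receptors, Il18r1 stood at 363, 350.3, 283 and 291 CPM in the iNKT17 cells and 137, 160.2, 141 and 170.0 CPM in the other cells (log2 fold change 1.08 ± 0.10 SE, adjusted p = 4.17e-04). Il7r, the receptor chain for IL-7 on which iNKT17 cells depend, was called with a small change (log2 0.47, adjusted p = 0.0316), and was not called without BALB/c 2 (0.47, adjusted p = 0.121) or without B6 2 (0.51, adjusted p = 0.0679). Il2ra, the high-affinity chain for IL-2, was higher at 1.89, whereas Il2rb, the chain shared by IL-2 and IL-15, was lower at -1.57. The Il2rb call was lost without B6 2 (-1.45, adjusted p = 0.0623). Il12rb1, which IL-12 and IL-23 receptors share, was higher at 1.11, and Il12rb2, the IL-12-specific chain, was lower at -2.96. The pair thus moved in opposite directions in the same cells. Il21r was lower at -2.01 (adjusted p = 3.66e-05). Of 8 common gamma chain receptor genes tested, 2 were higher, 3 lower and 3 did not pass, with a median of 0.098.

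Transcripts of the signature cytokines were scarce in these thymic cells. Il17a had 1, 5, 0 and 14 UMIs in the iNKT17 cells and 0, 0, 0 and 2 in the other cells. These came from 14 iNKT17 cells, 11 of them in B6 2 (5.19%, exact 95% binomial interval 2.62% to 9.09%). Il22 had 15, 9, 0 and 7 UMIs in the iNKT17 cells, from 27 cells, and 0, 0, 0 and 2 in the other cells. B6 1, with the fewest iNKT17 cells, had no UMI of either gene, which at 3 counts allows up to 2.93 CPM and so covers the level of Il17a in BALB/c 1 and BALB/c 2. Il17f had 1 UMI in iNKT17 cells and 8 in other cells. All 3 were too low to be tested, and intervals and floors cover counting error only. The Il17a promoter window (chr1:20730655-20730904, GRCm38.p6, plus strand) is shown because Il17a is the namesake target of the programme; it held 1 match to AGGTCA on the reverse strand, in capitals, at 120 bases before the start, and none to TAGGTCA:
Il17a: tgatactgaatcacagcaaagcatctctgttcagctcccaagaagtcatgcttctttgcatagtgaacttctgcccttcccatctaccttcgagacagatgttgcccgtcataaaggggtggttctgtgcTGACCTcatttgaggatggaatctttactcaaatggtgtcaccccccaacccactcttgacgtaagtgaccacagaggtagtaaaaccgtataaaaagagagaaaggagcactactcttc
Of the 7 type 17 cytokine genes that could be tested, Lta and Tnf were higher and 5 did not pass, with a median of 0.32. Lta, lymphotoxin alpha, stood at 23.4, 24.7, 16.2 and 21.7 CPM in the iNKT17 cells and 8.2, 6.52, 9.94 and 10.4 CPM in the other cells (log2 fold change 1.34 ± 0.21 SE, adjusted p = 0.004). Tnf stood at 34.1, 31.5, 34.4 and 36.9 CPM in the iNKT17 cells and 17.6, 14.6, 18.2 and 19.5 CPM in the other cells (log2 fold change 0.98 ± 0.10 SE, adjusted p = 6.59e-04). Both were higher in 4 of 4 libraries without overlap.

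**Figure D2:**
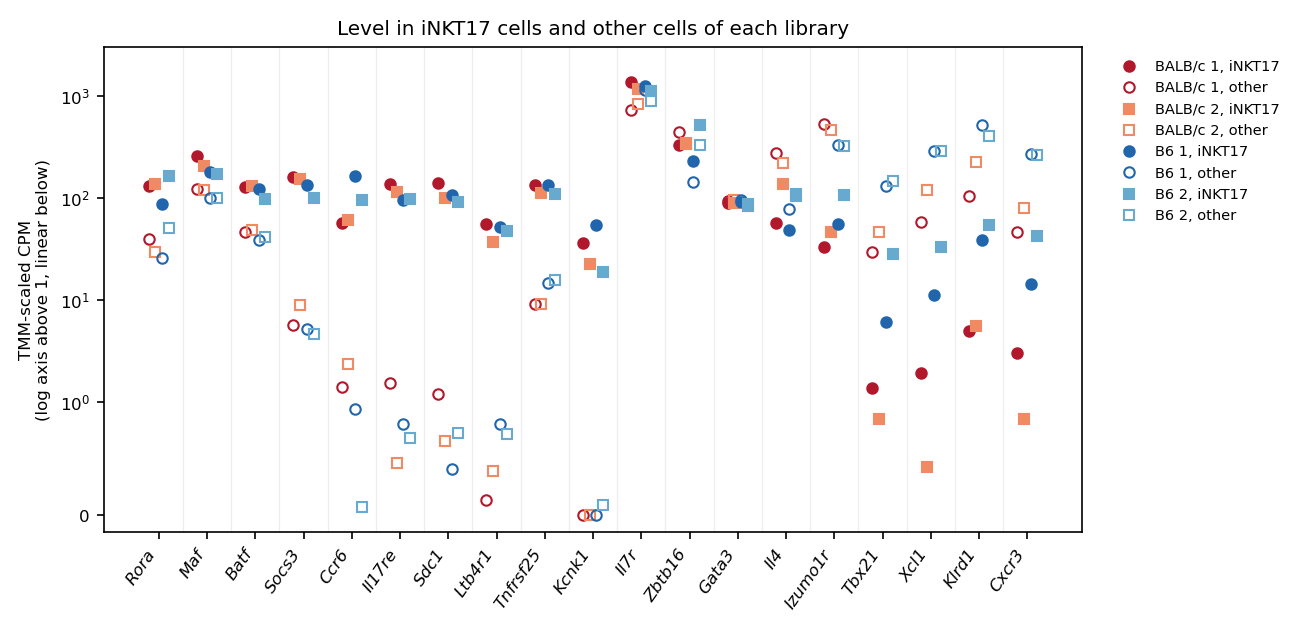
TMM-scaled CPM (vertical axis, log scale above 1 and linear below) of 19 named genes, with filled symbols for iNKT17 cells and open symbols for other cells of the same library, coloured by library. Il17re and Sdc1 are at 91.3 to 139 CPM in iNKT17 cells and at 1.53 CPM or less in other cells, Gata3 is at 82.5 to 94.5 CPM in all, and Tbx21, Klrd1 and Cxcr3 lie lower in the iNKT17 cells of each library.

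The genes with the largest differences outside the rule were nearly absent from the other cells. Abi3bp, an extracellular matrix protein, stood at 119, 79.7, 38.4 and 21.4 CPM in the iNKT17 cells and 0.133, 0.0652, 0 and 0.0427 CPM in the other cells (log2 fold change 9.53 ± 0.23 SE, adjusted p = 4.73e-07). Its 4 iNKT17 libraries did not overlap with the other cells, and both BALB/c libraries lay above both B6 libraries. Stab2, a scavenger receptor for hyaluronan, stood at 90.8, 66.5, 54.6 and 72.7 CPM in the iNKT17 cells and 0.133, 0.0652, 0 and 0.256 CPM in the other cells (log2 fold change 8.68 ± 0.28 SE, adjusted p = 1.56e-06), and without B6 2 at 9.77. Mmp25, a membrane-anchored matrix metalloproteinase, stood at 144, 113, 67.7 and 43.4 CPM in the iNKT17 cells and 0.667, 0.717, 0.134 and 0.057 CPM in the other cells (log2 fold change 8.13 ± 0.26 SE, adjusted p = 1.56e-06). Fam83a stood at 141, 113, 128 and 104 CPM in the iNKT17 cells and 1.27, 0.391, 0.537 and 0.37 CPM in the other cells (log2 fold change 7.71 ± 0.21 SE, adjusted p = 7.91e-07). Levels of Fam83a overlapped between strains, whereas those of Mmp25 were higher in both BALB/c libraries. The other genes of the 10 largest were Kcnk1, a potassium leak channel (log2 8.89, and 11.33 without B6 2, the only library with a UMI of it in the other cells), Cpe, carboxypeptidase E (8.33), Mycn, a MYC family factor (7.93), Lrrc17 (7.90, and 7.13 without B6 2 or 8.50 without BALB/c 2), Tuba8, an alpha tubulin (7.18), and Sdc1. A fitted fold change against so few UMIs depends on the prior count and gives an order of size only. Each of the 10 was higher in 4 of 4 libraries, as the rule for named genes required.

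Genes of IL-17-producing gamma-delta T cells were also compared. Of 7 tested, 3 were higher, none was lower and 4 did not pass, with a median of 1.05. 5830411N06Rik, a scavenger receptor gene of gamma-delta T cells, stood at 323, 276, 124 and 111 CPM in the iNKT17 cells and 67.4, 53.2, 13.5 and 19.1 CPM in the other cells (log2 fold change 2.55 ± 0.15 SE, adjusted p = 3.58e-05), and its relative Cd163l1 was higher at 1.30. Tcrg-C1, a constant segment of the gamma chain, stood at 297, 316, 264 and 296 CPM in the iNKT17 cells and 139, 106, 91.9 and 84.4 CPM in the other cells (log2 fold change 1.50 ± 0.12 SE, adjusted p = 1.44e-04). Its transcripts were present in both classes, at 84.4 to 139 CPM in the other cells. Trgv2 did not pass (log2 0.30, adjusted p = 0.0588) but did without BALB/c 1 (0.37, adjusted p = 0.0411). Trac, the alpha chain constant gene, was detected in 84.4% to 89.2% of iNKT17 cells and 78.9% to 86.3% of other cells. After the thinning used for Rora, Trac was detected in 70.2%, 61.8%, 74.7% and 72.3% of iNKT17 cells. The other cells then stood at 64.9%, 73.8%, 87.0% and 82.5%, so the iNKT17 share was the higher one in BALB/c 1 only. The invariant TCR segments Traj18 (log2 -0.50, adjusted p = 0.073) and Trav11 (log2 -0.63, adjusted p = 0.104) did not pass.

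The beta chains that pair with the invariant alpha chain were counted per cell, taking the segment with the most UMIs in cells where one could be called. Trbv13 was that segment in 72.8%, 77.3%, 72.5% and 71.8% of iNKT17 cells and in 62.8%, 58.2%, 63.9% and 68.4% of other cells. The classes did not overlap (73.6% ± 2.50 against 63.3% ± 4.18, SD, n = 4 libraries), and Trbv13 was 10.2 points higher in iNKT17 cells, in 4 of 4 libraries. Trbv29 was lower in 4 of 4 libraries, at 8.65%, 5.68%, 10.1% and 10.4% against 13.8%, 11.8%, 14.3% and 15.8%, by 5.17 points on average. For each of them p was 0.125 in a two-sided exact test permuting the classes within libraries, the smallest that 4 pairs allow, and 0.188 after Benjamini-Hochberg adjustment over 3 segments. Without BALB/c 2, where the Trbv13 difference was 19.1 points, the mean difference was 7.28 points. Trbv1 differed by -1.73 points with 2 libraries in each direction (exact p = 0.75).

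The iNKT1 programme was lower in iNKT17 cells. Of 17 iNKT1 markers tested, 15 were lower, none was higher and 2 did not pass, with a median of -3.15. Tbx21, which encodes T-bet (chr11:97098071-97115331, minus strand), stood at 1.38, 0.852, 6.07 and 27.9 CPM in the iNKT17 cells and 29.1, 46.1, 129.9 and 145 CPM in the other cells (log2 fold change -3.33 ± 0.36 SE, adjusted p = 7.20e-04). It was lower in 4 of 4 libraries, and its log2 fold change was -4.72 without B6 2, whose iNKT17 cells had the most Tbx21. Ifng stood at 1.93, 0.852, 1.01 and 3.45 CPM in the iNKT17 cells and 13.1, 18.8, 21.3 and 20.7 CPM in the other cells (log2 fold change -3.15 ± 0.30 SE, adjusted p = 3.80e-04). Klrd1, which encodes the NK receptor chain CD94, stood at 4.95, 5.54, 38.4 and 54.4 CPM in the iNKT17 cells and 103, 225, 517 and 404 CPM in the other cells (log2 fold change -3.80 ± 0.31 SE, adjusted p = 1.92e-04). Cxcr3, a receptor for interferon-induced chemokines, stood at 3.03, 0.852, 14.2 and 42.4 CPM in the iNKT17 cells and 46.5, 80.0, 269 and 263 CPM in the other cells (log2 fold change -3.56 ± 0.35 SE, adjusted p = 4.71e-04), and at -4.54 without B6 2. For each of these genes the B6 2 iNKT17 cells held more than those of the BALB/c libraries. Xcl1, a chemokine of iNKT1 and NK cells, was at -4.15, and at -5.35 without B6 2. Of 20 cytotoxic granule and NK receptor genes, 17 were lower and 3 did not pass (median -3.35). Klre1 was at -4.13, Klrc1 at -3.84 and -4.55 without B6 2, and Klra7 at -4.82 and -7.15 without B6 2. Ncr1, which encodes NKp46, had 0 UMIs in iNKT17 cells and 225 in the others, and with 3 counts taken as the floor for the class it was at least 6.3-fold lower, and was not called without BALB/c 2 (adjusted p = 0.0593). Klra genes are a family of near-identical copies, so their counts are uncertain. Of the genes described between classes, the edgeR calls of Tbx21, Cxcr3, Klre1, Zfp683, Hopx, Pdcd1, Fos, Runx1, Il12rb2, Il7r, Cd79a, Cd79b and Ifit3 were lost when the library was not a block (adjusted p 0.0545 to 0.402).

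Markers of early iNKT cells were lower or did not pass, and markers of iNKT2 cells were called in both directions. Of 15 iNKT2 markers, 6 were lower, 2 were higher (Il17rb and Icos) and 7 did not pass, with a median of -0.93. Summed over the list, the iNKT17 cells held 2549, 2548, 2413 and 3073 CPM and the other cells 3129.7, 2835, 2142 and 2595 CPM, lower in iNKT17 cells in both BALB/c libraries and higher in both B6 libraries. Izumo1r, the folate receptor FR4, stood at 32.7, 46, 55.6 and 106 CPM in the iNKT17 cells and 527, 464, 325 and 323 CPM in the other cells (log2 fold change -2.85 ± 0.36 SE, adjusted p = 0.00141). Cd4 stood at 9.63, 15.8, 8.09 and 16.9 CPM in the iNKT17 cells and 136, 131, 61 and 67.3 CPM in the other cells (log2 fold change -2.94 ± 0.26 SE, adjusted p = 2.79e-04). Neither gene overlapped between classes. Il4 stood at 57, 137, 48.5 and 104 CPM in the iNKT17 cells and 272, 221, 78.1 and 109 CPM in the other cells and did not pass (log2 -0.93, adjusted p = 0.0916); it was called where at least 3 of the 7 markers were required (-1.24, adjusted p = 0.00908) and after thinning (-1.41, adjusted p = 0.00114). Of 10 iNKT0 and early markers, 6 were lower and 4 did not pass (median -1.21). Lef1, a factor of early T cells, stood at 85.3, 114, 44.5 and 92.3 CPM in the iNKT17 cells and 403, 342, 185 and 238 CPM in the other cells (log2 fold change -1.79 ± 0.15 SE, adjusted p = 2.07e-04). Ccr9, a receptor for thymic CCL25, was at -4.01, and at -4.98 without B6 2. Of 9 double-positive thymocyte markers, 8 were lower and 1 was higher (median -3.86). Rag1 was at -5.46, and at -7.36 without BALB/c 1. Cd8a, at -4.03, was at -2.16 without cells marked as B cells or early thymocytes; the early thymocytes counted above were almost all in the other class.

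Residency and homing genes were split. Of 10 residency genes, 5 were lower, 2 higher (Itgae and Cxcr6) and 3 did not pass, with a median of -0.66. Zfp683, which encodes the residency factor Hobit, stood at 0.55, 0, 7.08 and 25.5 CPM in the iNKT17 cells and 15.5, 27.3, 208 and 185 CPM in the other cells (log2 fold change -3.65 ± 0.36 SE, adjusted p = 4.72e-04), and at -5.18 without B6 2. Hopx was at -2.66 and Itga1, the integrin CD49a, at -3.51. Of 21 exit and homing genes, 4 were higher (Cxcr6, Ccr2, Ccr6 and Itgb7), 9 lower and 8 did not pass, with a median of -0.72. Ccr2, a receptor for CCL2, stood at 167, 147, 161 and 178 CPM in the iNKT17 cells and 53.8, 60.0, 64.9 and 67.8 CPM in the other cells (log2 fold change 1.41 ± 0.084 SE, adjusted p = 4.41e-05). It was higher in 4 of 4 libraries, without overlap. S1pr1, the exit receptor, did not pass between classes (log2 -0.45, adjusted p = 0.649). It stood at 2.20 and 3.41 CPM in the BALB/c and 25.3 and 23.8 CPM in the B6 iNKT17 cells. In the strain test within iNKT17 cells, S1pr1 was called lower in BALB/c. The interaction test below also called it, with a lower BALB/c over B6 difference in iNKT17 cells. S1pr1 was chosen after its values were seen.

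Most TCR signalling genes did not pass the test, and those that did were mainly lower. Of 22, 2 were higher (Lat and Ubash3b), 7 lower and 13 did not pass, with a median of -0.21. Cd5, whose level follows TCR signal strength, stood at 99.6, 109.9, 89 and 117 CPM in the iNKT17 cells and 293, 277, 200.4 and 214 CPM in the other cells (log2 fold change -1.23 ± 0.12 SE, adjusted p = 3.70e-04). Cd28 was at -1.20. Both were lower in 4 of 4 libraries. Of 19 genes that TCR signals induce early, 8 were lower, 1 was higher and 10 did not pass (median -0.56). Dusp2, a phosphatase of MAP kinases, stood at 146, 126, 148 and 174 CPM in the iNKT17 cells and 331, 397, 787 and 594 CPM in the other cells (log2 fold change -1.74 ± 0.17 SE, adjusted p = 4.65e-04). The higher gene was Pdcd1, which encodes PD-1, at 368, 421, 161 and 163 CPM in the iNKT17 cells and 233, 213, 67.4 and 80.7 CPM in the other cells (log2 fold change 0.96 ± 0.10 SE, adjusted p = 5.65e-04). Of 14 AP-1 and immediate early genes, 5 were higher (Fos, Fosl2, Jun, Zfp36l1 and Klf4), 1 was lower (Dusp1) and 8 did not pass (median 0.18). Fos stood at 38.8, 43.9, 20.2 and 53.4 CPM in the iNKT17 cells and 6.33, 9.12, 7.79 and 31.2 CPM in the other cells (log2 fold change 1.74 ± 0.30 SE, adjusted p = 0.00692), and Fosl2, at 1.30, was not called without BALB/c 2 (1.00, adjusted p = 0.0854). Of 12 heat shock genes none passed in edgeR, with a median of 0.0041. Hspa1a had an unadjusted p of 0.0158 (log2 0.96) and was called without B6 2 (1.21, adjusted p = 0.0201); Hspb1 (unadjusted p 0.0127) was called without B6 2 as well (-2.07, adjusted p = 0.0209).

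Genes of the annexin, galectin and S100 list, which mark effector T cells, were higher in 8 of 12 cases and lower in 2 (Anxa1 and Anxa2), with a median of 0.53. S100a4 stood at 624, 502, 941 and 557 CPM in the iNKT17 cells and 139, 188, 164 and 127 CPM in the other cells (log2 fold change 2.06 ± 0.16 SE, adjusted p = 1.61e-04). Lgals1, galectin-1, stood at 979, 1015, 1017 and 961 CPM in the iNKT17 cells and 425, 434, 517 and 541 CPM in the other cells (log2 fold change 1.06 ± 0.083 SE, adjusted p = 1.51e-04). Neither overlapped between classes. Of 37 interferon response genes, 10 were lower, Slfn5 was higher and 26 did not pass (median -0.18). Ifit3 was at -1.66 (adjusted p = 4.71e-04). Of 13 BCL2 family genes, 4 were higher, 4 lower and 5 did not pass (median 0.20). Bcl2, the survival factor, stood at 9.08, 10.2, 10.1 and 26.2 CPM in the iNKT17 cells and 49.5, 85.9, 192 and 212 CPM in the other cells (log2 fold change -3.08 ± 0.20 SE, adjusted p = 6.91e-05). Bik, a pro-apoptotic BH3-only member, went the other way, at 38, 33.2, 56.6 and 36.5 CPM in the iNKT17 cells and 3.67, 3.52, 7.66 and 6.96 CPM in the other cells (log2 fold change 2.93 ± 0.19 SE, adjusted p = 6.34e-05).

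**Figure D3:**
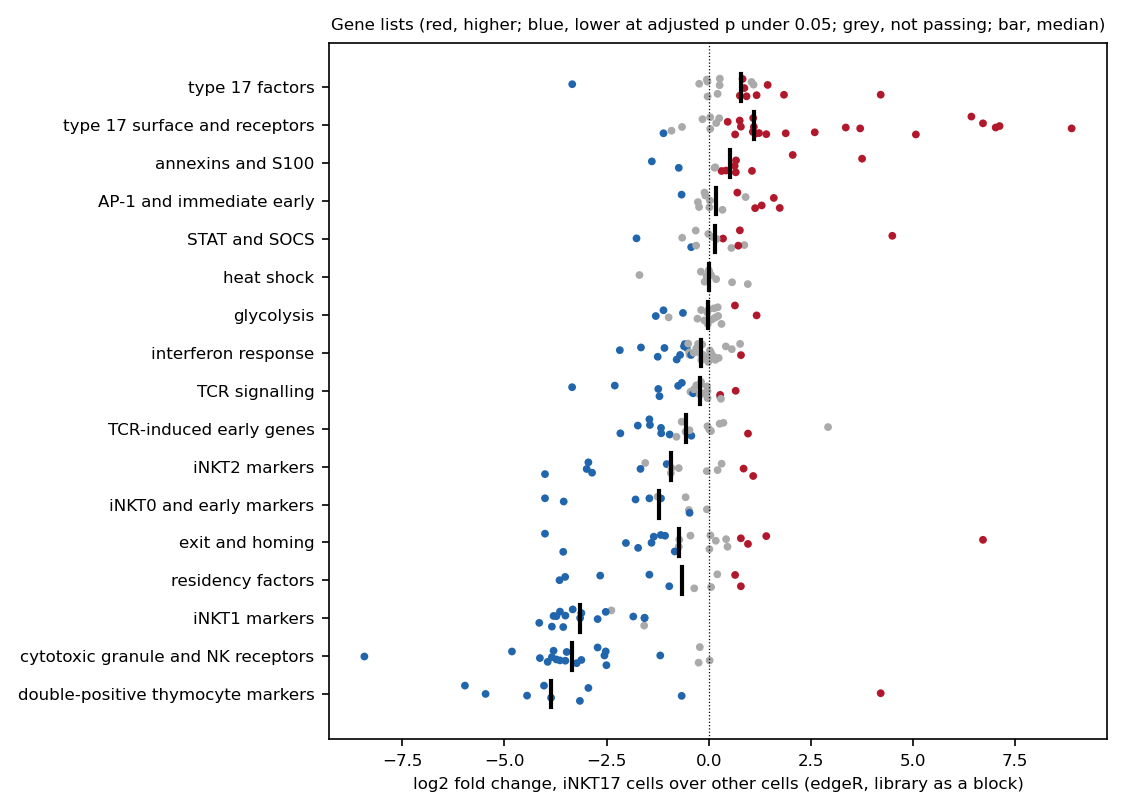
Log2 fold change of iNKT17 over other cells (horizontal axis) for each tested gene of 17 lists (rows), red where higher and blue where lower at an adjusted p under 0.05, grey where not passing, with the median as a bar. The type 17 surface list has its median at 1.10, and the iNKT1 and cytotoxic lists have theirs at -3.15 and -3.35.

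The share of iNKT17 cells among non-cycling cells was higher in both BALB/c libraries. The shares were 18.1% (exact 95% binomial interval 16.3% to 19.9%), 10.5% (9.13% to 12.0%), 3.45% (2.73% to 4.29%) and 2.35% (2.05% to 2.69%). Both BALB/c libraries lay above both B6 libraries (14.3% ± 5.34 against 2.90% ± 0.778, SD, n = 2), a difference of 11.4 percentage points. Permuting strains over the libraries gave an exact two-sided p of 0.33, which 2 against 2 libraries cannot go below. Among cells with at least 5000 UMIs, thinned to that depth, the difference was 12.8 points at a marker sum of 4. With no thinning, the difference was 7.61 points without BALB/c 1 and 15.2 points without BALB/c 2. The BALB/c shares differed from each other by more than their counting intervals.

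Within iNKT17 cells few genes were called between strains, in a test of 2 against 2 libraries that can miss differences. Of 9766 genes tested over the 4 iNKT17 sums, 135 (1.38%) were called, 68 (0.696%) higher and 67 (0.686%) lower in BALB/c, and 1345 had an unadjusted p under 0.05. No gene was called by edgeR when either BALB/c library was left out (563 and 582 genes at an unadjusted p under 0.05 without BALB/c 1 and BALB/c 2), and 1870 were called without B6 1 and 685 without B6 2, so the count is a rough one. Each fit with a library left out held 1 library of that strain. Without cells marked as B cells or early thymocytes, 310 were called.

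None of the 17 type 17 factors tested was called, where 1.38% of all genes tested were. Their median was 0.049, against -0.010 over all genes. Counts this small, here and for the surface genes below, cannot be told from that share. They do not show that the strains are alike. Rora stood at 133, 138, 88.5 and 167 CPM in the iNKT17 cells and overlapped between strains (log2 fold change 0.054 ± 0.28 SE, adjusted p = 0.976), with a difference of -0.29 without B6 1. Without B6 2 the log2 fold change of Rora was 0.61. Its sign also changed with 10 or more marker UMIs (-0.077), with 3 of 7 markers required (-0.033) and after thinning (-0.096). Maf stood at 261, 209, 185 and 175 CPM and did not pass (log2 0.39, adjusted p = 0.372), with a log2 fold change of 0.44 without B6 1. Of 28 surface and receptor genes, Itgb3, the integrin beta-3 chain, was higher in BALB/c, none was lower and 27 did not pass. Ccr6 stood at 57.9, 61.7, 169 and 96.6 CPM, higher in both B6 libraries, and did not pass (log2 fold change -1.12 ± 0.27 SE, adjusted p = 0.137). It was called by DESeq2 (-1.14, adjusted p = 0.0305), and was at -0.69 without B6 1 and -1.49 without B6 2. Sox13 stood at 75.8, 66.9, 20.8 and 34.4 CPM and did not pass (log2 fold change 1.29 ± 0.23 SE, adjusted p = 0.0709). Its log2 fold change was 1.07 without B6 1 and 1.79 without B6 2. The fits without B6 1 or B6 2 held 1 B6 library.

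The largest strain differences were in genes listed in the iNKT17 cells of 1 strain. Gfra4, which encodes a receptor for GDNF family ligands (chr2:131039632-131043088, minus strand), stood at 129, 131, 0 and 0 CPM, with 761 UMIs in BALB/c and 0 in B6, or at least 162-fold higher in BALB/c with 3 counts taken as the floor for a strain (edgeR adjusted p = 0.00423). Adam33, a metalloproteinase, stood at 63.2, 65.6, 0 and 0 CPM (at least 80.1-fold). Pianp stood at 37.8, 36.9, 0 and 0 CPM (at least 46.8-fold). None of these 3 had a UMI in the B6 iNKT17 cells. In the other direction, Trim12a (chr7:104299894-104315466, minus strand) stood at 0, 0, 64.5 and 58.3 CPM, at least 119-fold lower in BALB/c. Oas1a, an interferon-induced nucleotide synthetase, stood at 0, 0, 61.4 and 47.4 CPM (at least 101-fold lower), and Klrb1c, which encodes NK1.1, at 5.87, 1.74, 94.7 and 100.1 CPM (log2 fold change -4.54 ± 0.37 SE, adjusted p = 0.0085). Other genes among the 10 largest higher in BALB/c were Scg5, Tpm3-rs7, Fxyd7, Lhfpl3 and Map1b, and of the 10 largest lower Klra9, Coro2a, Oasl2, Ifi213, Apol7b, Padi2 and Nsg2. None of these genes was called by edgeR without BALB/c 1 or without BALB/c 2 (for Gfra4, adjusted p = 0.0585 and 0.0595), which leaves BALB/c with 1 library assumed to vary like the others. Trim12a, Oas1a, Oasl2, Klra9, Ifi213, Apol7b and Tpm3-rs7 have close copies in the genome, and their counts are uncertain. Per the submitters' notes the counts used mm10, and any part of strain differences in sequence in these values was not tested.

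Lists showed further strain differences. Of 16 iNKT1 markers, 6 were lower in BALB/c iNKT17 cells and none was higher, with a median of -3.52. Klrd1 stood at 5.04, 5.65, 39.5 and 55.5 CPM (log2 fold change -3.18 ± 0.28 SE, adjusted p = 0.0101) and Nkg7 at 17.1, 9.56, 99.9 and 182 CPM (log2 fold change -3.39 ± 0.38 SE, adjusted p = 0.0215). Tbx21 stood at 1.4, 0.869, 6.24 and 28.4 CPM and did not pass (log2 -3.96, adjusted p = 0.0933). Its log2 fold change was -4.53 without B6 1, a fit with B6 2 as the only B6 library. The B6 2 cells at a marker sum of 6 had 669.7 CPM of Nkg7, as described above, and 5 of these 18 cells were ranked as likely doublets. At sums of 20 or more Nkg7 stood at 15.3, 5.03, 73.6 and 129 CPM. The part of the cells at a sum of 6 in the strain difference was not tested. Of 36 interferon response genes, 6 were lower in BALB/c and none was higher (median -0.31); Ifit3 stood at 3.92, 3.04, 31.2 and 40.4 CPM (log2 fold change -3.35 ± 0.30 SE, adjusted p = 0.0101). Of 11 heat shock genes, Hsph1, Dnaja1 and Dnajb1 were higher in BALB/c and 8 did not pass (median 0.88). Dnajb1, a co-chaperone, stood at 196, 248, 79.1 and 83.6 CPM (log2 fold change 1.44 ± 0.17 SE, adjusted p = 0.0235). Pdcd1 stood at 374, 429, 165 and 166 CPM (log2 fold change 1.28 ± 0.15 SE, adjusted p = 0.0219). Klrd1, Nkg7, Dnajb1 and Ifit3 were picked from their lists after their values were seen. Several of these differences had the same direction in the other cells, where strain was not tested alone. There Klrd1 stood at 103, 225, 517 and 404 CPM, and Ifit3 at 16.8, 16.4, 86.1 and 102.5 CPM. Pdcd1 stood at 233, 213, 67.4 and 80.7 CPM and Klra9 at 0.467, 1.11, 407 and 311 CPM. The heat shock list summed to 9149, 10446, 5844 and 6041 CPM in the other cells.

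**Figure D4:**
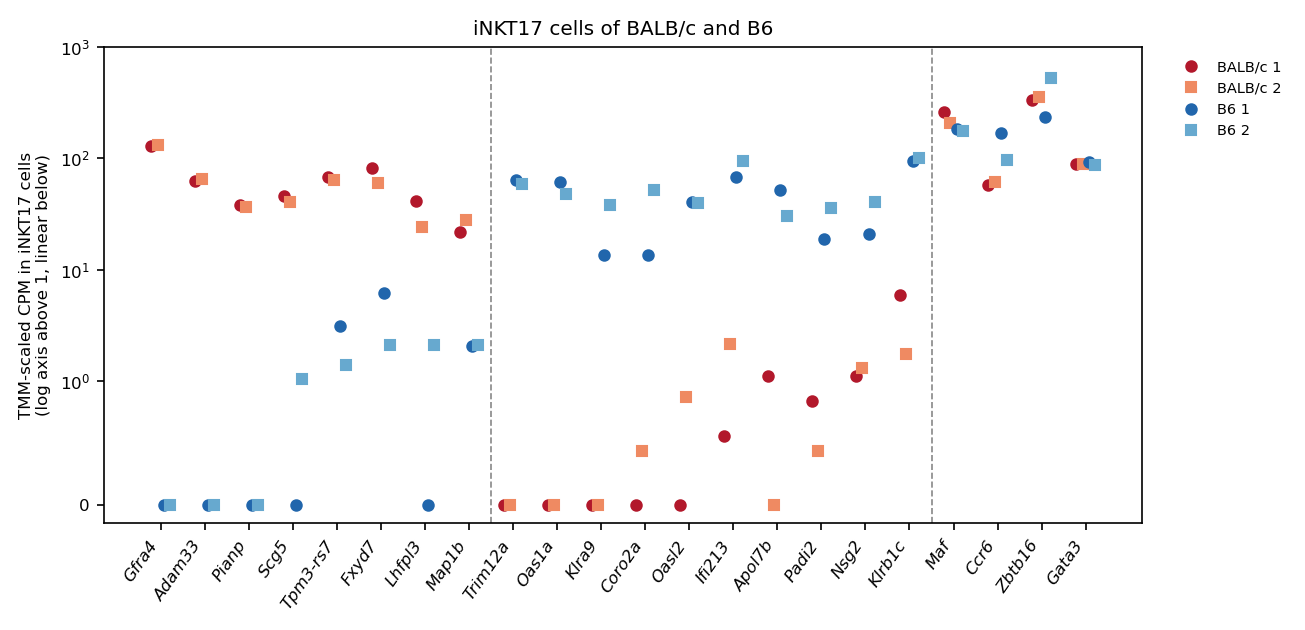
TMM-scaled CPM in iNKT17 cells (vertical axis, log scale above 1 and linear below) for each library; the first 8 genes are among the 10 largest called higher in BALB/c, the next 10 are the largest called lower, and the last 4 are other named genes. Gfra4, Adam33 and Pianp are at 0 in both B6 libraries, Trim12a, Oas1a and Klra9 at 0 in both BALB/c libraries.

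An interaction term asked whether a strain difference in iNKT17 cells was unlike that in the other cells of the same libraries. Of 12380 genes tested, 473 (3.82%) were called, with the BALB/c over B6 difference higher in iNKT17 cells for 229 (1.85%) and lower for 244 (1.97%). The other cells are a mixture whose make-up differs between strains, since early thymocyte-marked cells alone were 10.1% and 10.6% of them in BALB/c and 8.5% and 4.0% in B6. Markers of iNKT1 cells differed too, with a sum in the other cells of 1386 and 2475 CPM in BALB/c and 6679 and 5764 CPM in B6, with Tbx21 at 29.1 and 46.1 CPM and 129.9 and 145 CPM. This make-up moves with strain, and its part in these results was not tested. Without BALB/c 1, 131 genes were called. With no replicate block, which leaves the 2 classes of a library unpaired, 2 genes were called; Lgals3 was one of them (adjusted p = 0.00149), while Rgcc (adjusted p = 0.0821) and Tcf7 (adjusted p = 0.242) were not called. Lgals3, which encodes galectin-3 (chr14:47367751-47386160, plus strand), stood at 2449.7, 2396, 857 and 905 CPM in the iNKT17 cells and 61.1, 62.6, 175 and 207 CPM in the other cells. It was higher in BALB/c within iNKT17 cells and lower in BALB/c within the other cells, without overlap in either class (interaction log2 fold change 3.09 ± 0.085 SE, adjusted p = 1.46e-08). Rgcc, a cell cycle regulator induced by complement, stood at 167, 151, 229 and 183 CPM in the iNKT17 cells and 169, 139, 54.9 and 49.2 CPM in the other cells (interaction log2 fold change -1.91 ± 0.12 SE, adjusted p = 6.67e-05). BALB/c was higher in the other cells, and B6 was higher, by less, in the iNKT17 cells. Tcf7, which encodes TCF-1, stood at 478, 487, 511 and 407 CPM in the iNKT17 cells and 479, 465, 253 and 199 CPM in the other cells (interaction log2 fold change -0.99 ± 0.090 SE, adjusted p = 0.00103), and the B6 other cells were again the low group. Of 15 AP-1 and immediate early genes, 7 were called (Fos, Fosl2, Jun, Junb, Jund, Btg2 and Dusp1). All 7 had a higher BALB/c over B6 difference in iNKT17 cells, with a list median of 0.87 against 0.020 over all genes. Within iNKT17 cells alone, none of 14 genes of this list was called between strains (median 0.067). The list summed to 2624, 2603, 2015 and 2611 CPM in the iNKT17 cells. In the other cells it summed to 1813, 1913, 2097 and 2848 CPM. Of 18 type 17 factors in the interaction test, Ahr, Id2 and Ikzf3 were called with a higher and Sox13, Sox4 and Zbtb16 with a lower difference. The remaining 12 did not pass.

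**Figure D5:**
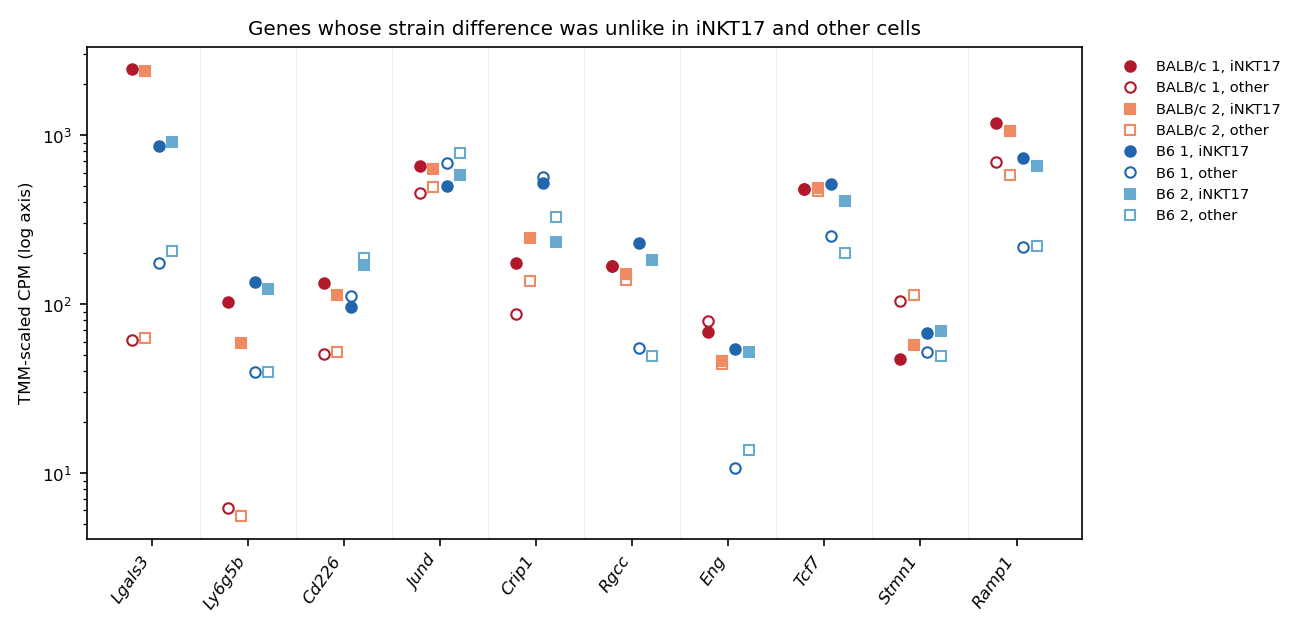
TMM-scaled CPM (vertical axis, log scale) of the 10 genes with the lowest interaction p, with filled symbols for iNKT17 cells and open symbols for other cells of the same library. Lgals3 lies at 2396 to 2450 CPM in BALB/c and 857 to 905 CPM in B6 iNKT17 cells, while in other cells the order of the strains is reversed, at 61.1 to 62.6 and 175 to 207 CPM.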

How the data were processed

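Single-cell RNA libraries of sorted thymic iNKT cells were deposited as 1 matrix of UMI counts per library, which are raw counts per gene and barcode, not normalized. Per the submitters' processing notes the tool was Cell Ranger 7.1.0 with mm10. Per the file headers the B6 2 matrix was made with that version, and the remaining matrices with 6.0.0. Counting of introns is not given in these sources. The deposited libraries held 20406245 to 82904358 UMIs, and of 32285 genes per file 99.8% had their identifier in GENCODE vM21 (GRCm38).

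Cells with at least 500 genes, 1000 UMIs and at most 10% mitochondrial UMIs were kept (1896, 1947, 2378 and 9546). The members, gene lists and the rule for named genes were chosen with earlier results of these data known. That rule took a fixed set of subset genes, up to 4 tested genes of lowest p per list, the 10 largest called changes per direction (mean of 20 CPM or more, no overlap or the same sign in 4 of 4 libraries) and, for the interaction, the 5 of lowest p per direction. It skipped TCR, immunoglobulin, H2, sex-linked and predicted genes; 176, 25 and 38 such calls were counted but not named, and a few other genes are counted but not reported here. Counts were summed per library and class and tested with edgeR 4.0.16 (TMM, filterByExpr, glmQLFit, glmQLFTest) in R 4.3.3, adjusted by Benjamini-Hochberg over all genes tested at 0.05: iNKT17 against other cells with the library as a block (8 sums), BALB/c against B6 within iNKT17 cells (4 sums), and their interaction. SE is the size of the log2 fold change over the root of F. CPM without TMM factors are used for rule genes, marker sums and score ranges. The fits were tested on simulated counts. Doublets were ranked with Scrublet in scanpy 1.11.5 (0.8% per 1000 barcodes) and kept in the main comparison. Alternatives were DESeq2 1.42.0, its size factors, no filter on low counts, each library left out, the block, other marker minimums, thinning to 5000 UMIs, and leaving out doublets or cells with 2 or more UMIs of B cell or early thymocyte genes. Thinning left out cells under 5000 UMIs. RefSeq promoters (GRCm38.p6) were searched over 250 bases before the start.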

Additional observations from a re-analysis of the deposited data

Results flagged for a closer look

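For 10 genes the BALB/c over B6 difference in iNKT17 cells was unlike that in the other cells of the same libraries by an edgeR interaction test, with the lowest p among called genes of either direction. In 5 of them the difference was higher in iNKT17 cells. Lgals3, the galectin-3 gene described above, had an interaction of 3.09 ± 0.085 (log2, SE, edgeR adjusted p = 1.46e-08), from a BALB/c over B6 log2 ratio of 1.46 in iNKT17 and -1.63 in other cells. Ly6g5b, a member of the Ly6 family, had an interaction of 2.09 ± 0.20 (log2, SE, edgeR adjusted p = 0.0011), from a BALB/c over B6 log2 ratio of -0.67 in iNKT17 and -2.76 in other cells. Cd226, the activating receptor DNAM-1, had an interaction of 1.42 ± 0.14 (log2, SE, edgeR adjusted p = 0.00112), from a BALB/c over B6 log2 ratio of -0.11 in iNKT17 and -1.53 in other cells. For Ly6g5b and Cd226 the larger strain difference was that of the other cells, where B6 was the higher strain. Jund, an AP-1 subunit, had an interaction of 0.90 ± 0.090 (log2, SE, edgeR adjusted p = 0.00112), from a BALB/c over B6 log2 ratio of 0.26 in iNKT17 and -0.64 in other cells. Crip1, a LIM domain protein, had an interaction of 1.22 ± 0.13 (log2, SE, edgeR adjusted p = 0.00202), from a BALB/c over B6 log2 ratio of -0.85 in iNKT17 and -1.99 in other cells. In the other 5 it was lower in iNKT17 cells. Rgcc had an interaction of -1.91 ± 0.12 (adjusted p = 6.67e-05), from -0.37 in iNKT17 and 1.56 in other cells. Eng, the TGF-beta co-receptor endoglin, had an interaction of -2.16 ± 0.19 (log2, SE, edgeR adjusted p = 0.00103), from a BALB/c over B6 log2 ratio of 0.10 in iNKT17 and 2.34 in other cells. Tcf7 had an interaction of -0.99 ± 0.090 (adjusted p = 0.00103), from 0.071 in iNKT17 and 1.06 in other cells. The levels of Eng and Tcf7 were close between strains in iNKT17 cells and higher in BALB/c in the other cells. Stmn1, a microtubule regulator that is high in dividing cells, had an interaction of -1.52 ± 0.15 (log2, SE, edgeR adjusted p = 0.00112), from a BALB/c over B6 log2 ratio of -0.39 in iNKT17 and 1.10 in other cells. Ramp1, a co-receptor for the neuropeptide CGRP, had an interaction of -0.85 ± 0.089 (log2, SE, edgeR adjusted p = 0.00157), from a BALB/c over B6 log2 ratio of 0.68 in iNKT17 and 1.54 in other cells. With no replicate block, Lgals3 kept its call (edgeR adjusted p = 0.00149) and the other 9 lost it, with adjusted p from 0.0821 for Rgcc and Stmn1 to 0.59 for Crip1. The make-up of the other cells differs between strains, and its part in these values was not tested.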

How the results depend on the processing

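Against 1825 genes called between iNKT17 and other cells, 855 were called with no replicate block for the library and 1033 to 1524 with 1 library left out, the fewest without BALB/c 2. Against 135 genes called between strains, edgeR called 1022 with no filter on low counts, 225 with marker UMIs per 10000 UMIs, 282 with 3 of 7 markers required, 208 after thinning, 310 without B and early thymocyte cells and 0 (without either BALB/c library), 685 (without B6 2) and 1870 (without B6 1) with 1 library left out, and DESeq2 called 241. The labels number the libraries 1 and 2 in each strain but do not pair them; deviations of same-numbered libraries correlated at -0.288 over 5986 genes, and the replicate block gave 51 calls and the crossed pairing, chosen after seeing the data, 207. Against 473 interaction calls, DESeq2 gave 283, no filter 977, leaving out B and early thymocyte cells 744, no replicate block 2, and leaving out 1 library 131 to 632. The causes were not tested. For the class comparison, 1826 of 1932 single-gene values kept their direction and side of the threshold, 59 lost the call, 35 gained it and 12 changed sign; for strain the counts were 345, 40, 27 and 13 of 425, and for the interaction 140, 10, 0 and 0 of 150. Genes that changed sign had not passed the test, except Cd79a. Between classes, Cd79a was at -1.51 with 3 of 7 markers required. Cd74 was at -0.29 with 3 of 7 markers required. Irf8 was at -0.14 without BALB/c 2, -0.14 without B6 1, -0.44 with 3 of 7 markers required, -0.056 after thinning and -0.35 without B and early thymocyte cells. Cd68 was at 0.11 without BALB/c 2 and 0.24 with marker UMIs per 10000 UMIs. Tnfsf11 was at -0.055 with marker UMIs per 10000 UMIs. Nrp1 was at -0.0060 with no filter on low counts and -0.23 without B6 1. Between strains, Rora was at -0.29 without B6 1, -0.077 with a marker sum of 10 or more, -0.033 with 3 of 7 markers required and -0.096 after thinning. Il7r was at -0.019 without BALB/c 1. Zbtb16 was at 0.56 without B6 2. Gata3 was at 0.027 with no filter on low counts, 0.00066 without BALB/c 1, 0.0072 without BALB/c 2, 0.046 without B6 1 and 0.011 without B and early thymocyte cells. Il4 was at -0.46 without BALB/c 2 and -0.13 without B6 1. Klra9 and Tbx21 have no strain value under some alternatives, where low counts removed them. Depth limits B6 1 most, with 77 iNKT17 cells.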

Other observations

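Other lists moved in both directions. Of 18 glycolysis genes tested between classes, Pfkp and Slc16a3 were higher in iNKT17 cells, Slc2a1, Slc2a3 and Tpi1 lower and 13 did not pass (median -0.0092). Of 20 cholesterol and lipid synthesis genes, 2 were higher, Acaca among them, Sc5d and Fasn lower and 16 did not pass (median 0.029). Of 12 cathepsins and cystatins, Ctss, Lgmn and Cst3 were higher and Ctsd, Ctsl and Ctsw lower (median 0.099). Of 17 other cytokine receptor genes, Il12rb1, Il18r1, Il17rb and Ifngr2 were higher and Il12rb2, Il10ra, Il10rb and Ifnar1 lower (median -0.14). Of 4 innate lymphoid cell markers tested, Arg1 was higher and Ncr1 lower, and of 4 regulatory T cell markers Il2ra was higher and Tnfrsf18 lower, with Foxp3 at 0 UMIs in iNKT17 cells.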
